A study of Mus musculus with 5 samples.

Results

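The enzymes that make, degrade and read out cyclic nucleotides were described across the cell types of the mouse lumbar dorsal root ganglion (DRG), the ganglion that holds the cell bodies of the sensory neurons. A row of the count table belonged to the set when its symbol was that of an adenylyl cyclase (Adcy), a guanylyl cyclase (Gucy1 or Gucy2), a phosphodiesterase (Pde with a number and a letter), a catalytic or regulatory subunit of protein kinase A (Prkac, Prkar) or a protein kinase G (Prkg). This rule took 50 of 17271 rows and used no measured value. Single cells came from 5 libraries of adult, untreated wild type C57BL/6 mice of both sexes, all in 1 group, so that cell types and not treatments were compared. The ganglia were dissociated with collagenase P and trypsin at body temperature and cleared of debris on a Percoll gradient before droplet capture with a 3′ tag kit, and every type shares that handling.

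Adenylyl cyclases convert ATP to cAMP downstream of G protein-coupled receptors. Soluble guanylyl cyclase makes cGMP in response to nitric oxide, and some receptor guanylyl cyclases do so in response to peptides. Phosphodiesterases hydrolyse the cyclic nucleotides, with families that prefer cAMP, prefer cGMP or accept both. In its resting form protein kinase A (PKA) is a pair of regulatory subunits that hold a pair of catalytic subunits inactive until cAMP binds, and protein kinase G (PKG) is the corresponding kinase for cGMP. In sensory neurons cAMP and PKA are best known for sensitizing nociceptors during inflammation, and cGMP for its part in axon branching and in spinal pain signalling.

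Promoter sequences were read for the gene whose transcript was most abundant in any type (Prkar1a) and for 3 genes with sharp differences between types (Pde4b, Prkar2b and Pde4c), all chosen after the values were seen. Each window runs from 250 bases before to 50 after an annotated start, from RefSeq on GRCm38.p6, printed 5′ to 3′ on the strand of the gene. Capitals mark the cAMP response element core TGACG or its complement CGTCA in Prkar1a and Pde4b, and the GC box GGGCGG or its complement CCGCCC in Prkar2b, while the Pde4c window held no TGACG on either strand and is in lower case. Prkar1a has 6 such windows, Pde4b 4, Prkar2b 2 and Pde4c 1, and the window of each with the most matches, or the lowest coordinate on a tie, is shown. The windows lie at chr11:109650612-109650911 (plus strand), chr4:102421305-102421604 (plus), chr12:32061228-32061527 (minus) and chr8:70723814-70724113 (plus).
Prkar1a: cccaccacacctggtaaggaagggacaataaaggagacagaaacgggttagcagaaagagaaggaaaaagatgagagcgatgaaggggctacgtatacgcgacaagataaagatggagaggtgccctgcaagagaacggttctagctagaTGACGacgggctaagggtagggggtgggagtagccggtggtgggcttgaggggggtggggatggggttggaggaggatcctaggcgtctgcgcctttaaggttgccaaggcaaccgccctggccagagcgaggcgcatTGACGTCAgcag
Pde4b: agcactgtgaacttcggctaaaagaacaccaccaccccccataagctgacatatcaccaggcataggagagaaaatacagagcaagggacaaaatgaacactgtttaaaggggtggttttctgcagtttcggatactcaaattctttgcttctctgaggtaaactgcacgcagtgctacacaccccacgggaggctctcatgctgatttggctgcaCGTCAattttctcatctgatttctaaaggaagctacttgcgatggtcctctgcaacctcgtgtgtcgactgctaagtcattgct
Prkar2b: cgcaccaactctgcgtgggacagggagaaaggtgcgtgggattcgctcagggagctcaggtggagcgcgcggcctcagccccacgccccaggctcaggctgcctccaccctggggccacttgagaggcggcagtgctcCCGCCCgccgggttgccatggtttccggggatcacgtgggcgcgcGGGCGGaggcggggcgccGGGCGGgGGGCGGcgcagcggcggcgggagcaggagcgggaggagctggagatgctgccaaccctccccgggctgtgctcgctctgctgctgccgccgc
Pde4c: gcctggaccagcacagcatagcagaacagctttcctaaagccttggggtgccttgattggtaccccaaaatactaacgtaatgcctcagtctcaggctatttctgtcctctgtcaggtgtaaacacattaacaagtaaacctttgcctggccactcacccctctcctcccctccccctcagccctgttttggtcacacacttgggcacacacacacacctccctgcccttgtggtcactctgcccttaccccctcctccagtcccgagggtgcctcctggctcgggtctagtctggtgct

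The full palindromic element TGACGTCA, which contains TGACG and CGTCA, stood in 2 windows, both of Prkar1a, among the 79 windows of the 39 genes of the set that have one (2.53%), and in 1.79% of 32851 windows of all genes. The core TGACG or CGTCA stood in 19 of 79 windows of the set (24.1%) against 20.8% of all windows. The GC box stood in 33 of the 79 (41.8%) against 35.7%. A match is a run of letters, not a site, and the lack of one says nothing of the factor.

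The table held 3352 cells and 17267 rows that name a mouse gene, and each cell carried the study's own annotation to 1 of 14 types. The types are 3 of nonpeptidergic neurons (NP), 3 of neurofilament neurons (NF), 5 of peptidergic neurons (PEP), neurons with tyrosine hydroxylase (Th), satellite.glia and endothelial cells, and the annotation spells NF_Calb1 as NF_Ca1b1. The libraries, numbered by the identifier in the cell names, held 164 to 1370 cells and 13050389 to 88886975 unique molecular identifiers (UMIs, each standing for 1 captured transcript), and 7 barcodes occurred in 2 libraries each. NP_Mrgprd cells gave 41.1% of all UMIs, so the cells that another type is set against are weighted towards them. Median UMIs per cell ran from 16889 in endothelial cells and 17729 in satellite.glia to 105150 in NP_Mrgprd. Markers were checked for each class: 7 neuronal genes summed to between 13740 and 15610 CPM (a count scaled to library size so that all genes of a sum add up to the same total) in the neurons of the 5 libraries against 371 to 1132 CPM in satellite.glia, 8 satellite glia genes to between 84700 and 108800 CPM in satellite.glia, and 8 endothelial genes to between 6754 and 9986 CPM in endothelial cells. The endothelial cells also held glial RNA, with the satellite glia genes at 5062 to 19520 CPM, 1 of the 8 at 0, against 234 to 388 CPM in neurons. In satellite.glia, 6 genes of myelinating Schwann cells summed to 1121 to 2084 CPM, against 493 to 625 CPM in neurons. There 6 fibroblast genes summed to 196 to 1115 CPM, against 12.8 to 86.6 CPM in neurons. The part of such cells in the satellite.glia levels was not tested.

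UMIs were summed per type and library, and each type was compared with all other cells of the same 5 libraries by edgeR's quasi-likelihood test. To be called higher or lower, a gene had to differ at least 2-fold, with an adjusted p (Benjamini-Hochberg) under 0.01, and had to be detected in no fewer than 25% of the cells on the higher side. The types had been clustered by the study from these same counts, so the tests describe how far types differ and are no independent evidence that they do. Levels are given as CPM, mean ± SD over the 5 libraries (n = 5), and 3′ tags do not scale with transcript length. How well the tags of each gene were captured was not tested, so levels of different genes are set side by side only as UMIs counted. In bulk sums of this kind a lower share of cells with the transcript and fewer transcripts per cell give the same CPM.

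Of the 50 genes, 36 passed the filter on low counts in at least 1 type and 28 passed it in all 14. The other 14 could not be tested in any type: Adcy10, Gucy1a3, Gucy1b3, Gucy2c, Gucy2d, Gucy2e, Gucy2f, Gucy2g, Pde3a, Pde6a, Pde6b, Pde6c, Pde6h and Pde9a. Of these, Gucy2d, Gucy2e, Gucy2f, Pde3a and Pde6c had under 10 UMIs in all 3352 cells. At the other end, 8 genes had at least 10359 UMIs each, namely Pde6d, Prkaca, Prkacb, the 4 Prkar genes and Prkg1. Together the set took 0.151% of all UMIs. Of the tested genes, 27 were called higher in at least 1 type, 23 lower in at least 1, and 20 both higher in a type and lower in another, or 75.0%, 63.9% and 55.6% of the 36. Of all 13733 genes tested in at least 1 type, 50.2%, 46.8% and 26.3% were. Only Adcy6, Pde11a, Pde5a, Pde6g, Pde7b and Pde8a were tested and called nowhere. Tau, a measure of restriction that is 0 for an even level in the 14 types and 1 for a transcript in a single type, had a median of 0.706 over the 34 genes with at least 100 UMIs and of 0.580 over the 13474 such genes of the table.

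**Figure D1:**
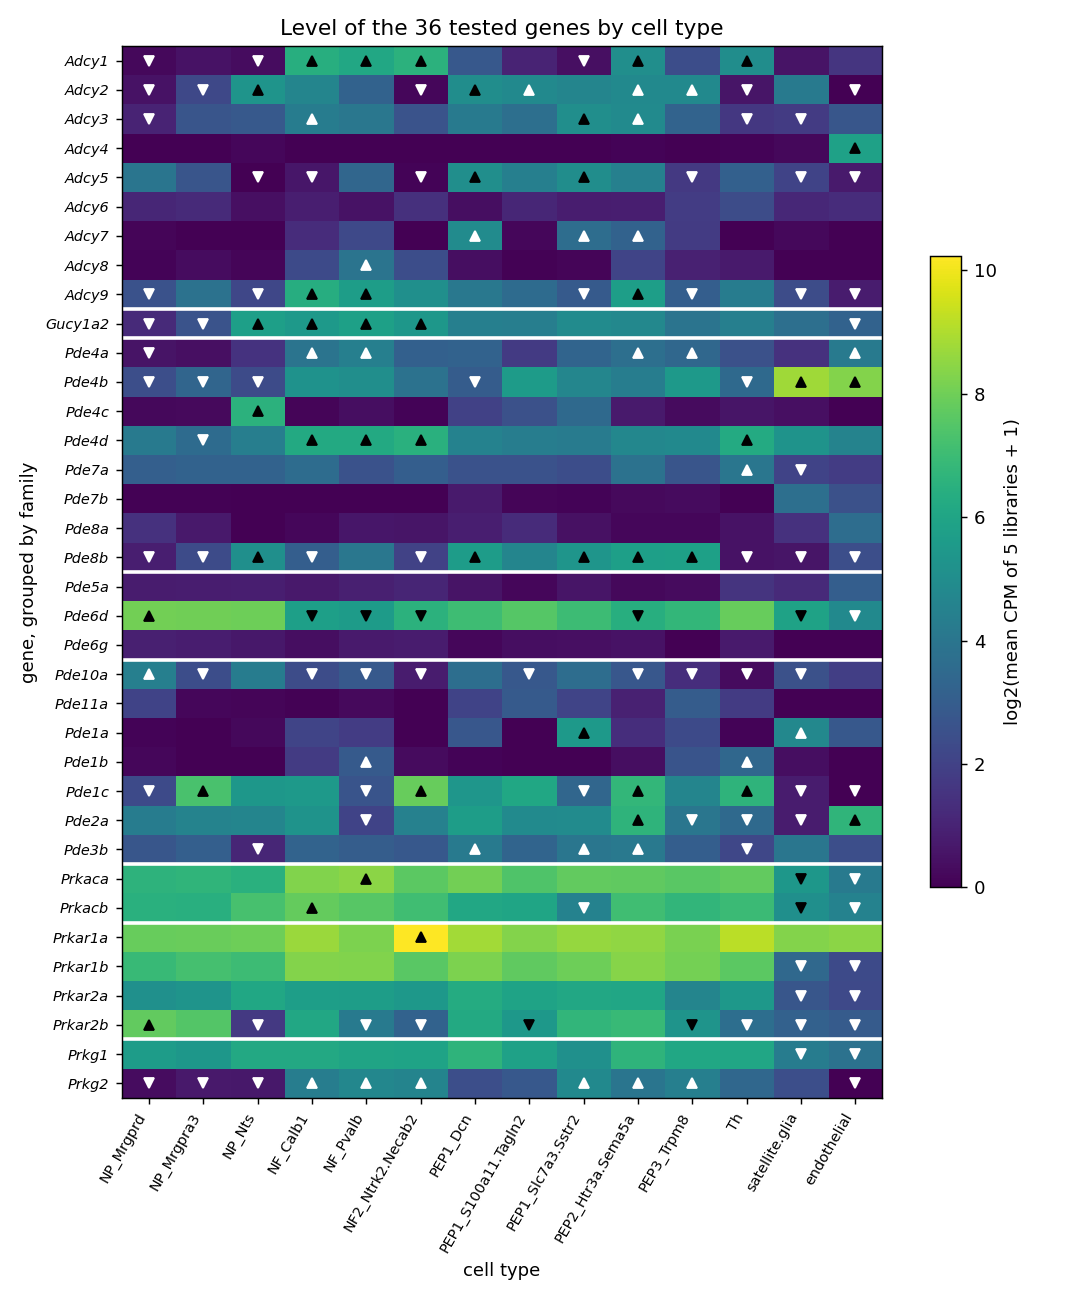
Level of the 36 tested genes (rows, grouped by family) in the 14 cell types (columns), coloured by log2 of the mean CPM of 5 libraries plus 1. Triangles pointing up mark genes called higher than the other cells and triangles pointing down genes called lower. Prkar1a in NF2_Ntrk2.Necab2 (1198 CPM) is the brightest field, and Prkaca, Prkacb, Prkar1b, Prkar2a and Prkar2b are marked lower in the satellite.glia and endothelial columns.

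The count of called genes differed widely between types and is read against the share of all genes called there. Among the nonpeptidergic types, NP_Mrgprd had 3 of 34 tested genes higher (4.72% of all genes) and 10 lower (8.76%). NP_Mrgpra3 had 1 of 29 higher (2.96%) and 7 lower (6.04%), and NP_Nts had 4 of 30 higher (4.88%) and 7 lower (9.72%). Higher calls outnumbered lower ones in NF_Calb1 and NF_Pvalb. NF_Calb1 had 8 of 31 higher (13.4%) and 4 lower (10.6%), NF_Pvalb had 9 of 30 higher (12.4%) and 5 lower (12.3%), and NF2_Ntrk2.Necab2 had 6 of 30 higher (7.71%) and 6 lower (8.96%). Among the peptidergic types, PEP2_Htr3a.Sema5a had the most higher calls of any type, 11 of 29 or 37.9% (7.64% of all genes), with 2 lower (5.97%). PEP1_Slc7a3.Sstr2 had 7 of 29 higher (4.98%) and 4 lower (6.77%), PEP1_Dcn had 5 of 28 higher (5.48%) and 1 lower (4.91%), and PEP3_Trpm8 had 4 of 29 higher (5.32%) and 5 lower (7.77%). PEP1_S100a11.Tagln2 stood near the background, with 1 of 29 higher (3.28%) and 2 lower (4.28%). Th neurons had 5 of 31 higher (5.93%) and 8 lower (7.26%). In satellite.glia 2 of 29 were higher (14.8%) and 15 lower (27.5%), and in endothelial cells 4 of 29 were higher (15.2%) and 14 lower (33.1%). With the other types scaled to equal depth, an alternative added after the data were seen, the higher calls became 3 in NF_Calb1, 3 in NP_Mrgpra3, 3 in Th and 1 in PEP3_Trpm8. Of the higher calls in PEP2_Htr3a.Sema5a, those of Adcy1, Adcy2, Pde4a and Prkg2 were lost under that scaling. Over all types, the higher calls then went from 70 to 60 for the set and from 13106 to 11784 for all genes.

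**Figure D2:**
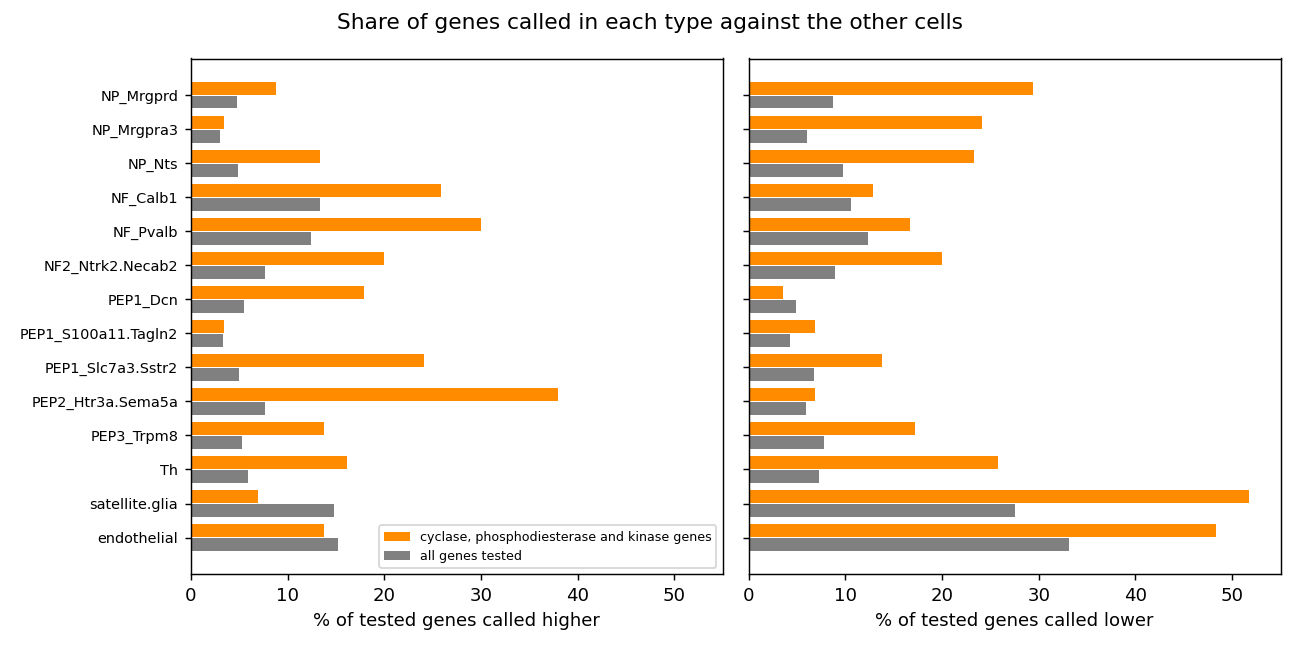
Share of tested genes called higher (left) and lower (right) in each type against the other cells, for the cyclase, phosphodiesterase and kinase genes (orange) and for all genes tested (grey), in percent. Orange exceeds grey most for higher calls in PEP2_Htr3a.Sema5a (37.9% against 7.64%), while for higher calls in satellite.glia and endothelial cells orange is the shorter bar.

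Adenylyl cyclase transcripts summed to 215 ± 26.0 CPM in NF_Calb1 and to 22.6 ± 3.35 CPM in NP_Mrgprd, the highest and lowest of the 14 types, and the leading isoform changed from type to type. Adcy1, a calcium/calmodulin-stimulated cyclase, was called higher in the 3 neurofilament types, in Th and in PEP2_Htr3a.Sema5a. In Th it read 24.1, 32.8, 26.9, 39.0 and 33.0 CPM and in PEP2_Htr3a.Sema5a 16.2, 23.2, 38.2, 47.2 and 35.2 CPM, and both of these calls were lost with the other types scaled to equal depth. In NF2_Ntrk2.Necab2 it read 60.9, 108, 95.8, 110 and 97.9 CPM in libraries 1 to 5, against 10.4 to 19.5 CPM in the other cells (log2 fold change 2.83 ± 0.18 SE, adjusted p = 5.5e-09). In NF_Calb1 it read 75.9, 106, 66.9, 81.6 and 87.0 CPM against 9.33 to 13.9 CPM (2.85 ± 0.14 SE, adjusted p = 6.7e-10). Every library of either type lay above every library of its comparison. In NP_Mrgprd, in contrast, Adcy1 read 0 CPM in 2 libraries and at most 0.435 CPM in the others, against 21.7 to 28.7 CPM in the other cells (-6.63 ± 0.26 SE, adjusted p = 1.4e-10), and in PEP1_Slc7a3.Sstr2 it had 6 UMIs in 342 cells (-5.27 ± 0.40 SE, adjusted p = 4.6e-08). A UMI of Adcy1 was found in 100% of the 58 NF2_Ntrk2.Necab2 cells and in 1.67% of the 900 NP_Mrgprd cells, whose median depth was higher (105150 against 96530.5 UMIs).

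Adcy9, a widely expressed cyclase that forskolin stimulates poorly, was highest in NF_Calb1, at 87.4, 85.1, 102, 59.9 and 73.1 CPM against 10.7 to 17.8 CPM (2.47 ± 0.16 SE, adjusted p = 1.1e-08). The groups did not overlap. Adcy9 was also called higher in PEP2_Htr3a.Sema5a (52.5 ± 8.54 CPM) and NF_Pvalb (50.1 ± 13.1 CPM), and lower in 6 types. Adcy8, the other calcium-stimulated isoform of the nervous system, was called in NF_Pvalb only among the 6 types where it could be tested, at 19.2, 14.8, 9.24, 12.5 and 16.8 CPM against 0.643 to 1.35 CPM (4.07 ± 0.26 SE, adjusted p = 4.8e-09). Adcy5, a calcium-inhibited cyclase, was called higher in PEP1_Dcn and PEP1_Slc7a3.Sstr2 (32.4 ± 4.28 and 31.6 ± 6.89 CPM) and led the cyclase sum in NP_Mrgprd with 64.7% of it. Adcy5 was close to absent in NP_Nts, with 1 UMI in 400 cells (0, 0, 0, 0 and 0.111 CPM against 11.2 to 16.5 CPM, adjusted p = 8.3e-10). The other cells had 307 times that level, with a 95% counting interval of 55.1 to 12140. In NF_Calb1 Adcy5 read 0.557 ± 0.493 CPM (log2 fold change -4.73 ± 0.35 SE, adjusted p = 3.5e-08).

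Adcy2, a cyclase that G protein beta-gamma subunits activate, led in NP_Nts with 38.4 ± 7.79 CPM and 77.9% of the summed cyclases, and was called higher in PEP1_S100a11.Tagln2 (23.2, 34.8, 33.7, 23.1 and 22.9 CPM against 10.0 to 15.6 CPM, 1.18 ± 0.16 SE, adjusted p = 5.6e-05). With the other types scaled to equal depth that difference fell under 2-fold. Adcy2 was also called higher in PEP1_Dcn (31.05 ± 10.4 CPM), PEP3_Trpm8 (28.2 ± 7.95 CPM) and PEP2_Htr3a.Sema5a (27.95 ± 5.97 CPM). The calls in PEP3_Trpm8 and PEP2_Htr3a.Sema5a were lost under the same scaling. In NF2_Ntrk2.Necab2, Adcy2 had 1 UMI in 58 cells, where the other cells held 74.8 times that level with a 95% counting interval of 13.4 to 2954 (adjusted p = 1.2e-07). Adcy7, best known from immune cells, had the highest tau, 0.927, of the cyclases with at least 100 UMIs. It read 30.8, 25.1, 48.2, 18.8 and 23.9 CPM in PEP1_Dcn against 1.42 to 3.23 CPM (3.92 ± 0.30 SE, adjusted p = 1.5e-07) and 9.04, 19.8, 6.71, 13.2 and 9.09 CPM in PEP1_Slc7a3.Sstr2 against 1.11 to 4.21 CPM (2.33 ± 0.36 SE, adjusted p = 7.1e-05). Adcy7 was also called higher in PEP2_Htr3a.Sema5a (8.28 ± 4.37 CPM, adjusted p = 0.0012). Macrophage genes, another place where Adcy7 is found, summed to 2.06 to 4.62 CPM over the neurons of the 5 libraries, for a list of 7 genes, and their part in the Adcy7 values was not tested. Adcy4 was endothelial, at 68.6, 49.6, 59.1, 54.6 and 55.4 CPM against at most 0.0783 CPM in the other cells (10.41 ± 0.45 SE, adjusted p = 3.1e-12). A UMI of Adcy4 was found in 62.5% of 56 endothelial cells and in 0.243% of the other cells, and Adcy4 made up 84.4% of the endothelial cyclase sum. Adcy3, the olfactory isoform, was called higher in PEP1_Slc7a3.Sstr2, PEP2_Htr3a.Sema5a and NF_Calb1, the last of which was lost with the other types scaled to equal depth. Adcy6 was called in no type, and Adcy10, the soluble bicarbonate-sensitive cyclase, had 42 UMIs in all.

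**Figure D3:**
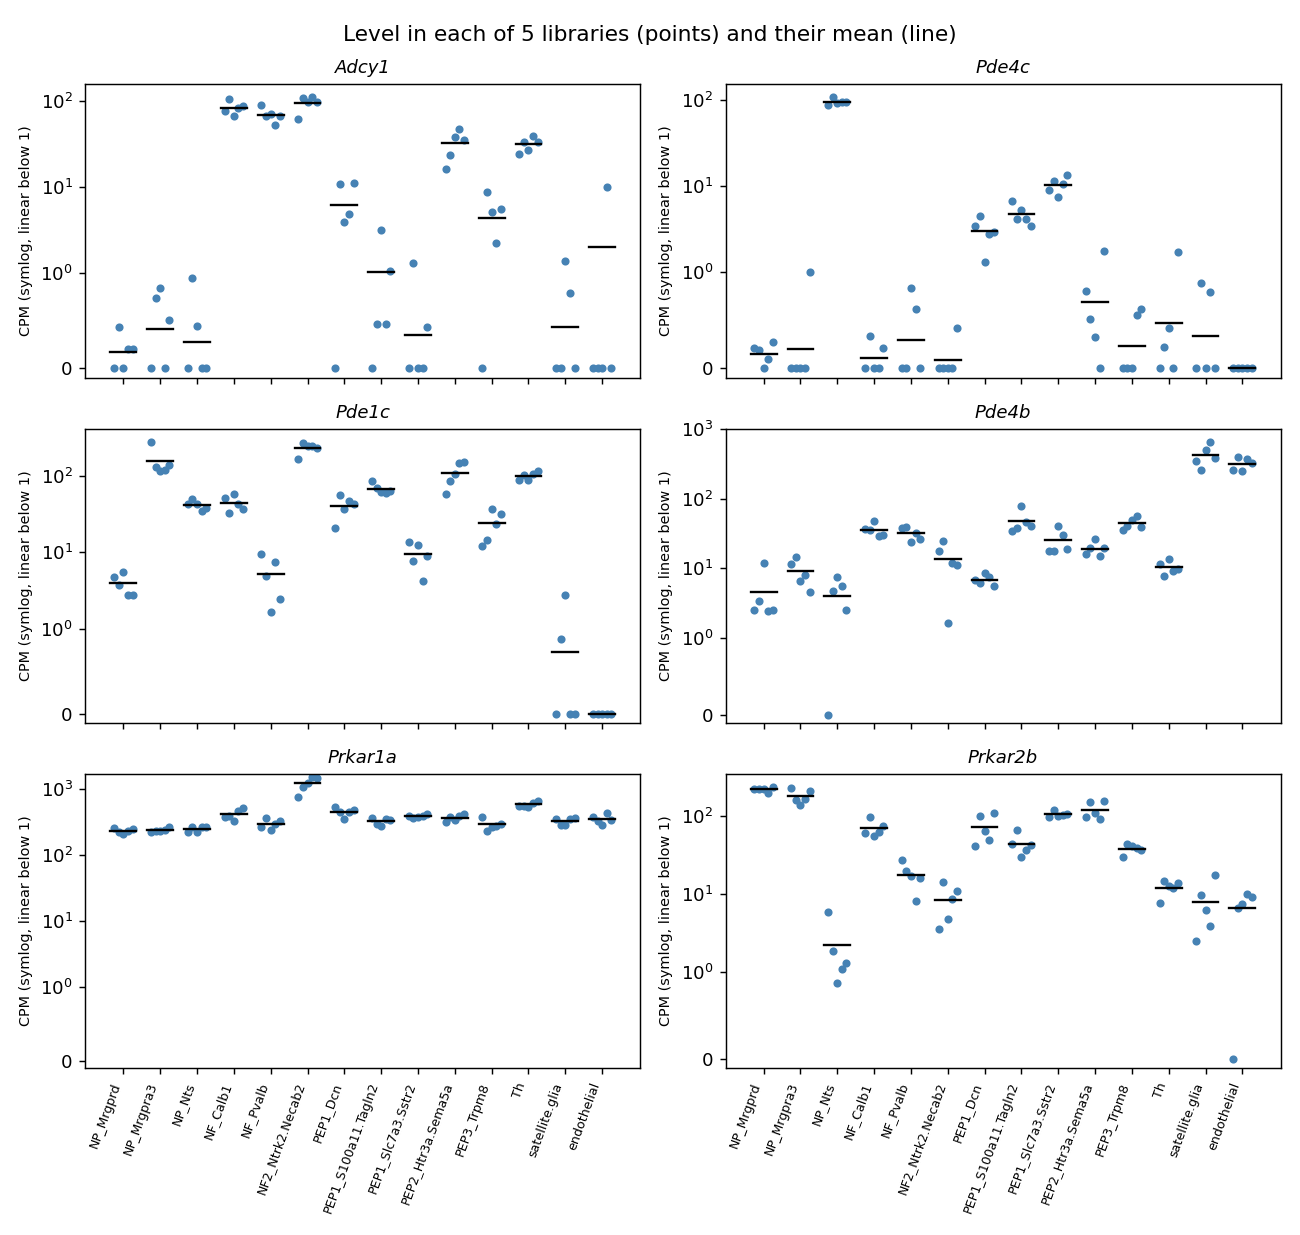
CPM of 6 genes in each of the 5 libraries (points, left to right libraries 1 to 5) and their mean (line) in the 14 types, on an axis that is linear below 1 CPM and logarithmic above. Pde4c stands alone in NP_Nts (94.9 CPM), where Prkar2b is lowest (2.21 CPM), and Pde4b is highest in satellite.glia and endothelial cells (432 and 321 CPM).

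Guanylyl cyclase transcripts were uneven in their subunits. Soluble guanylyl cyclase is a heterodimer of an alpha subunit (Gucy1a2 or Gucy1a3, the latter now named Gucy1a1) and a beta subunit (Gucy1b3, now Gucy1b1). Gucy1a2 had 4307 UMIs in 3047 neurons and a UMI in 53.95% of them, with a 95% exact binomial interval of 52.2% to 55.7%. Gucy1b3 had 9 UMIs in the same neurons, in 0.295% of them (0.135% to 0.560%). In endothelial cells, whose median depth was 16889 UMIs against 62779 in neurons, Gucy1b3 was found in 7.14% (1.98% to 17.3%) and in satellite.glia in 4.02% (1.94% to 7.26%). Thus the alpha transcript was counted widely in neurons and its beta partner hardly at all. How well the 3′ tags of Gucy1b3 were captured was not tested, and intervals cover counting error only. Gucy1a2 itself varied between neuron types. In NP_Nts it read 36.5, 59.3, 58.7, 59.7 and 54.0 CPM against 13.99 to 19.7 CPM (1.74 ± 0.13 SE, adjusted p = 4.6e-08), and in NF_Pvalb 88.2, 52.4, 39.5, 51.1 and 48.1 CPM against 16.4 to 22.1 CPM (1.51 ± 0.15 SE, adjusted p = 6.9e-07). Gucy1a2 was also called higher in the other neurofilament types, NF_Calb1 (44.2 ± 5.39 CPM) and NF2_Ntrk2.Necab2 (41.9 ± 9.61 CPM). Both of these calls were lost with the other types scaled to equal depth. Gucy1a2 was called lower in NP_Mrgprd (1.302 ± 0.398 CPM) and NP_Mrgpra3 (5.10 ± 1.01 CPM). None of the 5 receptor guanylyl cyclases named Gucy2 could be tested. Gucy2g, the best counted with 88 UMIs, read 17.1 CPM in library 1 of PEP1_Dcn, from 4 cells, and 0.411 to 2.09 CPM in the other libraries. The symbol rule took no natriuretic peptide receptor, some of which have guanylyl cyclase activity. Of these, Npr2 read 33.1 ± 4.02 CPM in neurons (6931 UMIs), 7.07 ± 2.97 CPM in satellite.glia and 20.6 ± 11.3 CPM in endothelial cells.

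The cAMP-specific phosphodiesterases (families 4, 7 and 8) differed in which isoform led. Pde4c was confined largely to NP_Nts, at 87.7, 107, 90.9, 95.2 and 93.5 CPM against 0.758 to 1.55 CPM in the other cells (6.18 ± 0.16 SE, adjusted p = 2.7e-12). Its tau of 0.983 was the highest of the set. A UMI was found in 97.0% of 400 NP_Nts cells and in 1.11% of NP_Mrgprd cells, which were deeper, and PEP1_Slc7a3.Sstr2 came next with 10.4 CPM. Pde4b, a short-lived transcript induced by cAMP in many cells, led in the non-neuronal types. It read 356, 258, 511, 649 and 384 CPM in satellite.glia against 10.1 to 25.9 CPM (4.93 ± 0.28 SE, adjusted p = 4.6e-11), and 257, 397, 255, 372 and 323 CPM in endothelial cells against 11.2 to 48.3 CPM (3.67 ± 0.32 SE, adjusted p = 2.7e-08). Among neurons Pde4b was called lower in PEP1_Dcn, at 6.85, 6.16, 8.47, 7.65 and 5.50 CPM (-2.08 ± 0.40 SE, adjusted p = 7.8e-04), and in all 3 nonpeptidergic types and Th. These comparisons include satellite.glia among the other cells: against other neurons only, the calls in NP_Mrgpra3 and Th were lost, as was that in NP_Mrgpra3 without library 1, 3 or 4 and that in Th without library 2 or 4. Immediate early transcripts, chosen after the values were seen, were also higher in the same types: Fos read 812 ± 220 CPM in satellite.glia and 1019 ± 513 CPM in endothelial cells against 269 ± 36.7 CPM in neurons, and Egr1 224 ± 44.4, 458 ± 111 and 53.8 ± 3.65 CPM. Their part in the Pde4b values was not tested, nor was that of the glial RNA in the endothelial level.

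Pde4d, the broadest of the family, was called higher in Th neurons, at 71.3, 81.2, 58.4, 84.4 and 86.1 CPM against 25.9 to 29.9 CPM (1.52 ± 0.12 SE, adjusted p = 5.8e-08), and in the 3 neurofilament types. The call in NF_Calb1 was lost with the other types scaled to equal depth. Pde8b, which has a high affinity for cAMP, was called higher in 4 of the 5 peptidergic types and in NP_Nts, though that in NP_Nts was lost under the same scaling. It read 57.1, 63.1, 57.1, 45.3 and 53.8 CPM in PEP3_Trpm8 against 10.9 to 17.8 CPM (1.92 ± 0.15 SE, adjusted p = 9.8e-08), 54.4 ± 13.3 CPM in PEP2_Htr3a.Sema5a (2.14 ± 0.14 SE, adjusted p = 7e-08) and 49.4 ± 4.54 CPM in PEP1_Dcn (1.79 ± 0.13 SE, adjusted p = 1e-07). In Th neurons it read 0.411 ± 0.753 CPM and was called lower, as it was in NP_Mrgprd and NP_Mrgpra3. Pde8b was the leading cAMP phosphodiesterase of those 4 peptidergic types, with 51.4% of the summed transcripts in PEP1_Dcn, 43.1% in PEP2_Htr3a.Sema5a, 38.6% in PEP3_Trpm8 and 36.7% in PEP1_Slc7a3.Sstr2. Pde7b was counted mainly in satellite.glia, with 56 of its 75 UMIs at 2.52, 15.1, 8.32, 15.04 and 20.2 CPM against 0.0367 to 0.193 CPM (7.17 ± 0.47 SE, adjusted p = 3.5e-10). It was not called, since only 19.7% of those cells held a UMI.

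**Figure D4:**
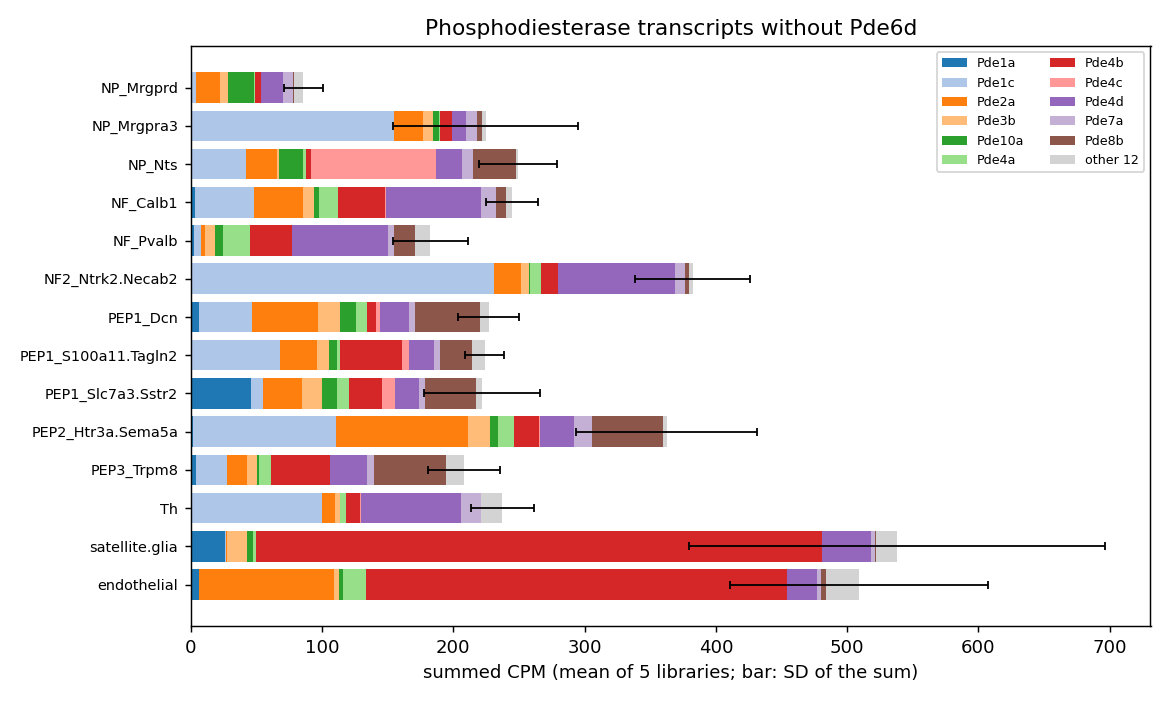
Summed CPM of the phosphodiesterase transcripts other than Pde6d in each type, mean of 5 libraries, stacked by gene; black bars give the SD of the sum. Satellite.glia and endothelial cells reach 538 and 509 CPM, mostly Pde4b, and NP_Mrgprd is lowest at 85.8 CPM.

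Among the genes classed with cGMP phosphodiesterases almost all UMIs belonged to Pde6d, which is a prenyl-binding chaperone and not a hydrolase. Pde6d read 269, 236, 244, 276 and 279 CPM in NP_Mrgprd against 122 to 180 CPM (1.09 ± 0.12 SE, adjusted p = 2.1e-06). Its mean was close to that level in NP_Mrgpra3 (257 CPM), NP_Nts (249 CPM) and Th (232 CPM). The cells that these types were set against include NP_Mrgprd, and none of them was called (log2 fold change 0.611, 0.426 and 0.355). In PEP2_Htr3a.Sema5a Pde6d read 83.2 ± 11.5 CPM against 168 to 228 CPM (-1.29 ± 0.14 SE, adjusted p = 3e-06). That difference fell under 2-fold once the other types were scaled to equal depth. Pde6d was also called lower in NF_Calb1 (53.4 CPM), NF_Pvalb (48.0 CPM), NF2_Ntrk2.Necab2 (93.4 CPM), satellite.glia (57.8 CPM) and endothelial cells (27.8 CPM). Of these calls, only that in NF2_Ntrk2.Necab2 was lost under the same scaling. Without Pde6d, the catalytic and remaining subunits of this group summed to between 0.562 ± 0.569 CPM in PEP3_Trpm8 and 8.77 ± 8.84 CPM in endothelial cells. Pde5a, the cGMP-specific enzyme of vascular smooth muscle, was highest in endothelial cells at 0, 16.5, 11.1, 0 and 9.24 CPM and could not be tested there. It rested on 9 UMIs. The endothelial cells also held pericyte or smooth muscle transcripts, whose 8 listed genes summed to 144 to 892 CPM in the 5 libraries against 18.95 to 35.06 CPM in neurons, none of them at 0, and their part in the Pde5a and Gucy1b3 counts was not tested.

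The phosphodiesterases that accept both nucleotides (families 1, 2, 3, 10 and 11) split the neurons. Pde1c, which calcium/calmodulin activates, read 165, 268, 245, 244 and 230 CPM in NF2_Ntrk2.Necab2 against 31.8 to 43.2 CPM (2.70 ± 0.13 SE, adjusted p = 3e-10). It read 272, 129, 116, 120 and 136 CPM in NP_Mrgpra3 against 32.6 to 44.5 CPM (2.14 ± 0.17 SE, adjusted p = 2e-07), the first value coming from 4 cells. In NF_Pvalb it read only 9.59, 4.94, 1.68, 7.47 and 2.44 CPM against 38.5 to 49.5 CPM (-3.33 ± 0.24 SE, adjusted p = 1.8e-08). The neurofilament types were thus far apart in Pde1c, with 231, 44.4 and 5.22 CPM in NF2_Ntrk2.Necab2, NF_Calb1 and NF_Pvalb. Pde1c was not found in 56 endothelial cells, so the level there was at least 12.8-fold lower than in the other cells, taking 3 UMIs over the 5 libraries as the limit, and in satellite.glia it had 5 UMIs (-5.13 ± 0.36 SE, adjusted p = 8.3e-10).

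Pde1a, its calcium-dependent relative, was found in other cells. In PEP1_Slc7a3.Sstr2 it read 14.7, 46.8, 72.3, 51.6 and 42.9 CPM against 0.949 to 2.85 CPM (4.82 ± 0.32 SE, adjusted p = 1.2e-08), and in satellite.glia 27.7, 18.7, 31.9, 26.9 and 26.0 CPM against 1.502 to 4.74 CPM (2.97 ± 0.29 SE, adjusted p = 6.1e-08). A UMI of Pde1a was found in 54.1% of PEP1_Slc7a3.Sstr2 cells and in 0.889% of the deeper NP_Mrgprd cells, and none was found in PEP1_S100a11.Tagln2, where 3 UMIs would be 0.310 CPM. Pde1b, the isoform best known from dopamine-receptive neurons, was low but restricted: 6.75, 12.04, 13.02, 9.91 and 6.94 CPM in Th neurons against 0.291 to 1.17 CPM (4.07 ± 0.31 SE, adjusted p = 6.2e-08), and 11.5, 7.90, 3.36, 2.49 and 7.31 CPM in NF_Pvalb against 0.514 to 1.83 CPM (2.39 ± 0.44 SE, adjusted p = 2.4e-04). Each calcium-dependent isoform therefore had its highest mean in a different type, Pde1a in PEP1_Slc7a3.Sstr2, Pde1b in Th and Pde1c in NF2_Ntrk2.Necab2. The isoforms did not divide the types, since Pde1c was also called higher in PEP2_Htr3a.Sema5a (109 ± 39.6 CPM) and Th (99.6 ± 12.4 CPM). In Th, Pde1c made up 79.1% of the summed phosphodiesterases that accept both nucleotides. The call of Pde1c in Th was lost with the other types scaled to equal depth.

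Pde2a, which cGMP stimulates to hydrolyse cAMP, read 78.5, 94.7, 108, 108 and 114 CPM in PEP2_Htr3a.Sema5a against 18.0 to 27.4 CPM (2.16 ± 0.13 SE, adjusted p = 3.8e-08). In endothelial cells it read 34.3, 146, 84.9, 129 and 120 CPM against 23.7 to 34.1 CPM and was also called higher (2.04 ± 0.24 SE, adjusted p = 8.8e-07), the lowest value coming from 3 cells. It stood at 0.712 ± 1.59 CPM in satellite.glia, where it was called lower. Pde10a, the striatal isoform, read 22.0, 19.5, 22.6, 17.5 and 19.6 CPM in NP_Mrgprd against 6.20 to 8.56 CPM (1.70 ± 0.12 SE, adjusted p = 2.3e-08). In NP_Nts it read 18.5 ± 2.57 CPM and was not called (0.71 ± 0.13 SE, under 2-fold). It was called lower in 9 types, most strongly in Th, where 3 UMIs in 232 cells set it 61.9 times under the other cells (95% counting interval 21.2 to 300.4, adjusted p = 2.3e-08), and in PEP3_Trpm8 (1.54 ± 1.82 CPM, -3.20 ± 0.44 SE, adjusted p = 2.8e-05). With the other types scaled to equal depth, 6 of those 9 calls were lost, in NF_Calb1, NF_Pvalb, NP_Mrgpra3, PEP1_S100a11.Tagln2, PEP2_Htr3a.Sema5a and satellite.glia. Pde3b, the insulin-responsive enzyme of fat and liver, was called higher in PEP1_Dcn, PEP1_Slc7a3.Sstr2 and PEP2_Htr3a.Sema5a at 14.98 to 17.1 CPM, though the call in PEP1_Slc7a3.Sstr2 was lost with the other types scaled to equal depth, while Pde3a had 5 UMIs in all. Pde11a peaked at 6.98 ± 3.25 CPM in PEP3_Trpm8 and was called nowhere.

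Of the PKA subunits, all but Prkar1a were called lower in satellite.glia and in endothelial cells, while Prkar1a stood at 324 ± 37.7 and 351 ± 54.1 CPM there and was not called. The catalytic subunits Prkaca and Prkacb summed to 540 ± 64.7 CPM in NF_Pvalb and to 39.0 ± 13.8 CPM in endothelial cells. Prkaca read 357, 417, 325, 308 and 350 CPM in NF_Pvalb against 121 to 175 CPM (1.17 ± 0.12 SE, adjusted p = 4.4e-07), and Prkacb read 191, 235, 206, 234 and 241 CPM in NF_Calb1 against 92.9 to 105 CPM (1.10 ± 0.09 SE, adjusted p = 1.5e-07). The balance between the catalytic subunits moved from Prkacb in NP_Nts, where Prkaca was 36.9 ± 3.84% of their UMIs, to Prkaca in PEP1_Slc7a3.Sstr2, where it was 90.8 ± 1.36%. In the latter type Prkacb was called lower, at 22.3 ± 5.29 CPM (-2.28, adjusted p = 2.1e-09). In satellite.glia Prkaca and Prkacb were called lower (41.9 ± 5.62 and 33.6 ± 3.72 CPM). Neuronal RNA was present there: Tubb3, a neuronal tubulin, read 210 ± 93.9 CPM in satellite.glia against 3335 ± 296 CPM in neurons, and its part in the levels there was not tested.

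Of the regulatory subunits, Prkar1a was the most abundant, with 75604 UMIs. Prkar1b had the lowest tau, 0.425, although it ran from 3.95 CPM in endothelial cells to 329 CPM in PEP2_Htr3a.Sema5a. The Prkar1a window printed above holds the full TGACGTCA element, and its part in the Prkar1a levels was not tested. In NF2_Ntrk2.Necab2 Prkar1a read 756, 1049, 1215, 1515 and 1456 CPM against 294 to 323 CPM (2.01 ± 0.17 SE, adjusted p = 1.5e-07), so that type I alpha made up 82.6 ± 3.40% of the regulatory transcripts of these cells. The lowest value came from the library with 3 such cells. Prkar1a also made up 93.1 ± 3.34% in satellite.glia and 95.9 ± 3.44% in endothelial cells, where the other regulatory subunits were called lower. Prkar1b, the neuronal type I beta subunit, stood at 116 to 329 CPM in the 12 neuron types and at 10.1 ± 5.04 CPM in satellite.glia (-4.27, adjusted p = 2.1e-11). The regulatory sum was highest in NF2_Ntrk2.Necab2 (1442 ± 331 CPM) and lowest in satellite.glia (347 ± 37.4 CPM).

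Prkar2b, the type II beta subunit that anchors PKA in neurons and fat cells, separated the nonpeptidergic types. In NP_Mrgprd it read 219, 221, 219, 194.5 and 230 CPM against 46.8 to 74.3 CPM (2.11 ± 0.12 SE, adjusted p = 3.9e-09), and NP_Mrgpra3 followed at 178 ± 35.2 CPM. In NP_Nts it was at 2.21 ± 2.07 CPM and was called lower (-6.51, adjusted p = 1e-10). A UMI was found in 99.1% of NP_Mrgprd cells, in 100% of NP_Mrgpra3 cells and in 6.75% of NP_Nts cells, while satellite.glia had 10.8% at a lower depth (17729 against 53136.5 UMIs per cell). Prkar2b thus made up 36.2 ± 1.45% of the regulatory transcripts in NP_Mrgprd and 0.511 ± 0.513% in NP_Nts, which had instead the largest share of Prkar2a, 15.2 ± 1.20%. A low Prkar2b level was not particular to NP_Nts. It was also called lower in NF2_Ntrk2.Necab2 (8.4 CPM, 0.577% of the regulatory transcripts), Th (12.1 CPM, 1.44%) and NF_Pvalb (17.5 CPM, 2.58%). Prkar2b was called lower in PEP3_Trpm8 as well, a call lost with the other types scaled to equal depth. In PEP1_S100a11.Tagln2 Prkar2b read 43.1, 64.9, 29.4, 36.5 and 42.9 CPM against 97.1 to 153 CPM and was called lower (-1.40 ± 0.19 SE, adjusted p = 4.3e-05). That call depended on how the other types were weighted. With the other types scaled to equal depth the log2 difference was -0.49 (adjusted p = 0.021) and in 1 fit over all types with equal weight it was 0.51 (adjusted p = 0.00059).

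**Figure D5:**
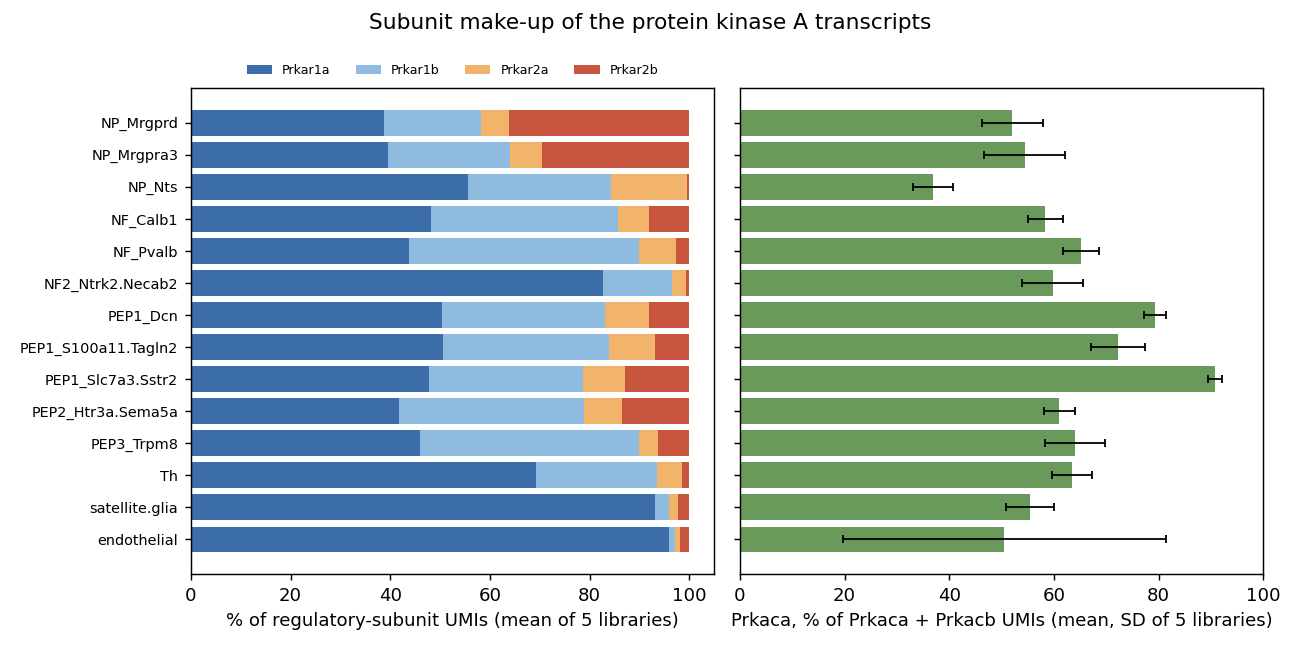
Make-up of the PKA transcripts in each type: left, each regulatory subunit as a percent of the UMIs of all 4, mean of 5 libraries; right, Prkaca as a percent of Prkaca and Prkacb UMIs, bars with SD over 5 libraries. Prkar2b takes 36.2% in NP_Mrgprd and 0.511% in NP_Nts, and the endothelial value on the right rests on 41 UMIs.

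The cGMP-dependent kinases differed in breadth. Prkg1, the kinase of the nitric oxide and natriuretic peptide pathways in sensory axons, stood at 34.2 to 99.6 CPM in every neuron type. It passed no call among neurons, and at its highest, in PEP2_Htr3a.Sema5a, it read 93.1, 98.0, 98.9, 85.3 and 123 CPM against 49.98 to 58.6 CPM (0.81 ± 0.10 SE, adjusted p = 1.1e-05, under 2-fold). Prkg2, the membrane-bound kinase of gut and bone, was patchy. In PEP1_Slc7a3.Sstr2 it read 31.6, 33.8, 23.1, 19.8 and 29.6 CPM against 5.13 to 9.41 CPM (2.08 ± 0.19 SE, adjusted p = 3.1e-07) and made up 44.6 ± 5.33% of PKG UMIs. Prkg2 was also called higher in NF_Pvalb (25.7 CPM), NF2_Ntrk2.Necab2 (23.8 CPM), PEP3_Trpm8 (20.1 CPM), NF_Calb1 (19.1 CPM) and PEP2_Htr3a.Sema5a (14.8 CPM). The calls in PEP3_Trpm8, NF_Calb1 and PEP2_Htr3a.Sema5a were lost with the other types scaled to equal depth. In the nonpeptidergic types Prkg2 was called lower each time, in NP_Mrgpra3 with 3 UMIs in 104 cells, 24.4 times under the other cells (95% counting interval 8.32 to 118, adjusted p = 3.7e-06).

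Genes around the pathway were counted from lists, and each count is of pairs of a gene and a type. Of all 169236 such pairs tested, 7.74% were called higher and 10.98% lower. Of 6 cAMP effectors other than PKA, 6 were tested and gave 12 higher and 16 lower calls over the 14 types, 20.7% and 27.6% of their 58 pairs. Rapgef3, the cAMP-activated exchange factor Epac1, was endothelial at 56.4 ± 17.8 CPM against 0.0748 ± 0.0632 CPM (9.38 ± 0.49 SE, adjusted p = 4.4e-11), and Bves, a cAMP-binding Popeye protein, had 1 UMI in satellite.glia against 23.1 ± 1.81 CPM in the other cells (adjusted p = 1.2e-09). Of 17 PKA inhibitors and anchors, 14 were tested, with 13 higher and 28 lower calls (7.10% and 15.3% of 183 pairs). Pkib and Akap6 were lowest in endothelial cells, with 1 and 3 UMIs there against 85.7 ± 14.5 and 91.5 ± 18.5 CPM (adjusted p = 4.8e-08 and 4.5e-08).

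Of 9 natriuretic peptides, receptors and nitric oxide synthases, 5 were tested, with 6 higher and 8 lower calls (10.3% and 13.8% of 58 pairs). Nppb, the peptide precursor of itch neurons, read 628 ± 177 CPM in NP_Nts against 0.502 ± 0.311 CPM (10.06 ± 0.35 SE, adjusted p = 4.8e-11), and Npr1, its receptor with guanylyl cyclase activity, 30.6 ± 5.63 CPM in endothelial cells against 0.763 ± 0.0659 CPM (5.25 ± 0.33 SE, adjusted p = 4.4e-10). Of 6 CREB family genes and coactivators, 6 were tested, with 7 higher and 5 lower calls (8.33% and 5.95% of 84 pairs). Crem, a cAMP-responsive transcription factor, stood with Pde4b in satellite.glia at 353 ± 44.1 CPM against 17.0 ± 1.44 CPM (4.54 ± 0.13 SE, adjusted p = 2.4e-14). In endothelial cells, also high in Pde4b, Crem read 469 ± 130 CPM, and in neurons 14.6 ± 1.34 CPM. Atf1 read 44.9 ± 4.80 CPM in endothelial cells against 9.22 ± 0.981 CPM (2.28 ± 0.22 SE, adjusted p = 8.7e-08). Of 6 cyclic nucleotide-gated channel genes 3 were in the table and 1 was tested, Cngb1, called higher in Th (4.68 ± 1.496 against 0.606 ± 0.215 CPM, 3.19 ± 0.30 SE, adjusted p = 5.3e-07). Of 3 PKG substrates 2 were tested, and Vasp was called lower in satellite.glia (24.4 ± 7.20 against 63.3 ± 3.81 CPM, -1.21 ± 0.15 SE, adjusted p = 9.1e-07).

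Across the 12 neuron types, Pearson's r of log2(mean CPM + 1) was computed for the 300 pairs of the 25 genes with at least 1000 UMIs in neurons. The types share libraries, and r is given as a description. Prkaca and Prkar1b, a catalytic and a regulatory subunit of PKA, ran most alike (r = 0.91), followed by Pde4a with each of them (0.91 with both), Adcy1 with Pde4d (0.91) and Adcy2 with Pde8b (0.91). Pde6d ran against Pde4a (r = -0.90), Prkar1b (-0.83) and Prkaca (-0.83).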

How the data were processed

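Per the labels and the methods of the study, lumbar DRGs were dissociated and captured with a Chromium 3′ kit, and the submitters' processing notes name Cell Ranger, Seurat and mm10. The authors deposited raw UMI counts per gene and cell, with a table that assigns each cell to a type. How strand and overlapping genes were counted is not given in the sources used here. Rows with no mouse gene (4 rows, 6.37e-05% of UMIs) were left out. Libraries were told apart by the identifier in the cell names, and which sample of the labels each is was not given. Cells were not filtered again and doublets were not called. Although the study removed cells with a high mitochondrial share, 188 cells exceed 10% by the rows of this table.

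UMIs were summed per type and library and tested against all other cells with edgeR 4.0.16 in R 4.3.3 (filterByExpr, TMM, quasi-likelihood test). P values were adjusted by Benjamini-Hochberg across the 11778 to 13265 genes tested per type. CPM used all UMIs of the sum. Of 70 sums, 9 held under 10 cells, the smallest 3. Alternatives were DESeq2 1.42.0, other filters and thresholds, other comparison cells, a replicate block and leaving out each library. The 2 sums of a library come from the same animal and so pair by design. Their deviations correlated at -0.021 to 0.396. Scripts were tested on simulated data. Python 3.11.15, scipy 1.17.1 and matplotlib 3.10.9 were used.

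Values were given in full for the 2 genes called higher with the largest fold and the gene called lower with the largest fold in each type, among those in the same direction in every library, and for the gene with the highest mean CPM and with the highest tau of each family. The genes, gene lists and tests were chosen with earlier results of these data known.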

Additional observations from a re-analysis of the deposited data

Results flagged for a closer look

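In 7 of 48 sets of 5 library values, 1 library stood apart by Dixon's test at the 95% level (critical value 0.71), which chance alone does in about 1 of 20 sets. Pde1c in NP_Mrgpra3 read 272.1 CPM in library 1, from 4 cells, against 116.3 to 135.9 CPM in the others. Gucy2g in PEP1_Dcn read 17.12 CPM in library 1, also from 4 cells, against 0.4106 to 2.086 CPM. Gucy1a2 in NF_Pvalb read 88.21 CPM in library 1, from 6 cells, against 39.46 to 52.36 CPM, and in NP_Nts 36.54 CPM in library 1, from 10 cells, against 54.04 to 59.67 CPM. Pde6d in PEP2_Htr3a.Sema5a read 102.8 CPM in library 4 against 72.51 to 80.93 CPM. Adcy5 in NP_Nts (0.111 CPM in library 5) and Adcy2 in NF2_Ntrk2.Necab2 (0.6593 CPM in library 4) had 1 UMI in 1 library and 0 in the others. Library 1, the smallest, gave 4 of the 7 values.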

How the results depend on the processing

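Of the named log2 differences, 479 of the values under alternatives kept their direction and their call, 4 fell short of a call and 1 turned: Prkar2b in PEP1_S100a11.Tagln2, at 0.51 with all types weighted equally. Without a minimum share of cells, higher calls became 6 in NP_Mrgprd, 2 in PEP1_S100a11.Tagln2 and 4 in satellite.glia, and lower calls 13 in NP_Mrgpra3, 13 in NP_Nts, 10 in NF2_Ntrk2.Necab2, 3 in PEP1_Dcn, 5 in PEP1_S100a11.Tagln2 and 4 in PEP2_Htr3a.Sema5a. With the other types scaled to equal depth, an alternative chosen after seeing the data, 52 of 70 higher and 79 of 90 lower calls were kept; higher calls became 3 in NP_Mrgpra3, 3 in NF_Calb1, 1 in PEP3_Trpm8 and 3 in Th, and lower calls 1 in PEP1_S100a11.Tagln2 and 1 in PEP2_Htr3a.Sema5a. In 1 fit of equally weighted types with a replicate block, where only 21 of the genes could be tested, higher calls became 2 in NP_Mrgpra3, 11 in PEP1_Dcn, 3 in PEP1_S100a11.Tagln2 and 1 in satellite.glia, and lower calls 4 in NP_Mrgpra3, 2 in NF_Calb1, 3 in NF_Pvalb, 8 in endothelial cells, 2 in PEP1_Slc7a3.Sstr2, 1 in PEP3_Trpm8, 0 in PEP2_Htr3a.Sema5a and 0 in PEP1_S100a11.Tagln2. The replicate block alone gave 71 higher and 88 lower calls in all, with 2 higher in PEP1_S100a11.Tagln2, as did the comparison with other neurons only, and moved no other count by over 1.5 times. It lost the lower calls of Gucy1a2 in endothelial cells and Pde7a in satellite.glia. Leaving out libraries gave 1 to 2 lower calls in PEP1_S100a11.Tagln2 (1 without library 5) and 1 to 2 in PEP2_Htr3a.Sema5a (1 without library 2). By the mean of single cells, the cAMP phosphodiesterase sum in NP_Mrgprd was 41.8 CPM in place of 32.4 and the dual sum in NF2_Ntrk2.Necab2 302.1 in place of 258.9. Depth limits endothelial cells most, where 3 UMIs are 3.19 CPM.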
